A study of Homo sapiens with 6 samples.

Results

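The genes described here are 10 non-receptor tyrosine kinases and partners that have been tied to trastuzumab resistance: the SRC-like kinases SRC, YES1, FYN, LYN and PTK6, the SRC tail kinase CSK, the focal adhesion kinases PTK2 (FAK) and PTK2B (PYK2), the docking protein BCAR1 (p130CAS) and the kinase ABL1. They were taken by symbol from 60612 Ensembl identifiers, and all 10 were among the 17854 genes with enough counts to be tested. RNA was sequenced from SKBR3, a mammary epithelial cancer line with amplified ERBB2, the gene of the receptor HER2, against which the antibody trastuzumab is directed. There were 3 libraries of untreated SKBR3 (parental) and 3 of SKBR3 given trastuzumab at concentrations raised over 30 weeks (trastuzumab). All 6 share the same line and its amplification. The doses, whether the drug was present at harvest and whether the adapted cells were 1 clone are not stated. The labels do not say that replicates came from separate cultures, so p-values measure only the spread between these libraries, which may be technical.

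SRC-like kinases sit mostly at the inner face of the plasma membrane and pass signals from integrins and receptor tyrosine kinases, HER2 among them. CSK phosphorylates a tyrosine in the tail of SRC kinases and so holds them in a closed, inactive form, while phosphatases such as PTPRA and PTPN1 remove that phosphate. At focal adhesions, FAK docks with active SRC, and the pair phosphorylates BCAR1, which recruits CRK adaptors that act on RAC and RAP GTPases. RNA levels do not measure the phosphorylation on which the activity of these enzymes depends.

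Libraries held 71015138 to 82857810 counts. Levels are given in CPM, counts per M after scaling by trimmed mean of M-values (TMM) factors, and 3 counts, the most that a count of 0 allows, come to 0.0372 to 0.0428 CPM, for counting error only. Changes are log2 fold changes of trastuzumab over parental with their standard error (SE) from edgeR's quasi-likelihood test, with p-values adjusted by Benjamini-Hochberg over all tested genes and a threshold of 0.05. By that rule 49.3% of all tested genes changed, 23.9% higher and 25.4% lower under trastuzumab, and 57.5% had groups that did not overlap. When only genes averaging 1 CPM or more in each group were tested, a larger share passed. A list of expressed genes can therefore exceed 49.3% without standing out. The luminal keratins KRT8, KRT18 and KRT19 stood at 1966 CPM or more in every library. CDH1, whose gene SKBR3 has lost, stood at 0.261 CPM or less. Among markers of other cell types, COL1A1, CSF1R and CDH5 alone passed 10 CPM in any library. The 10 leukocyte markers summed to 55.8 to 76.0 CPM in parental and 17.3 to 18.8 CPM in trastuzumab libraries, nearly all of it CSF1R, with PTPRC at 0.310 CPM or less. The 5 endothelial markers summed to 28.5 to 31.7 and 78.9 to 86.0 CPM, nearly all of it CDH5, with PECAM1 at 0.224 CPM or less. The 8 fibroblast markers summed to 9.73 to 19.5 and 6.38 to 11.5 CPM. The 6 basal markers, of which CNN1 was at 0 throughout, summed to 3.84 to 5.20 CPM in parental libraries and to 3.42, 21.2 and 20.1 CPM in trastuzumab replicates 1 to 3, most of it KRT5 and KRT14 in the higher libraries. In bulk RNA, fewer cells of a type and less RNA per cell cannot be told apart.

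Among the 10 genes, SRC, CSK and BCAR1 rose under trastuzumab, YES1 and FAK fell, and FYN, LYN, PTK6, PYK2 and ABL1 did not pass the test. SRC rose 1.45-fold and YES1 fell 1.57-fold. Per length, SRC stood at 0.946 times the level of YES1 in parental and 2.14 times in trastuzumab libraries, with groups that did not overlap (exact 2-sided permutation p = 0.1, the smallest that 3 against 3 libraries can give). With the trend of the changes on base composition and length removed, as described below, these changes were smaller. The log2 fold changes were 0.26 for SRC and -0.17 for YES1 against 0.54 and -0.65, and CSK and FAK did not pass. With base composition alone in the trend FAK passed as lower, and CSK, BCAR1 and YES1 did not pass. The ratio and the shares of SRC-like kinase RNA given below carry no such correction. LYN RNA was nearly absent from these cells. The changed genes were 5 of 10, beside 49.3% of all tested genes, and the groups of the same 5 did not overlap, beside 57.5%. The median log2 fold change of the 10 was 0.18, and -0.0057 over all tested genes.

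**Figure D1:**
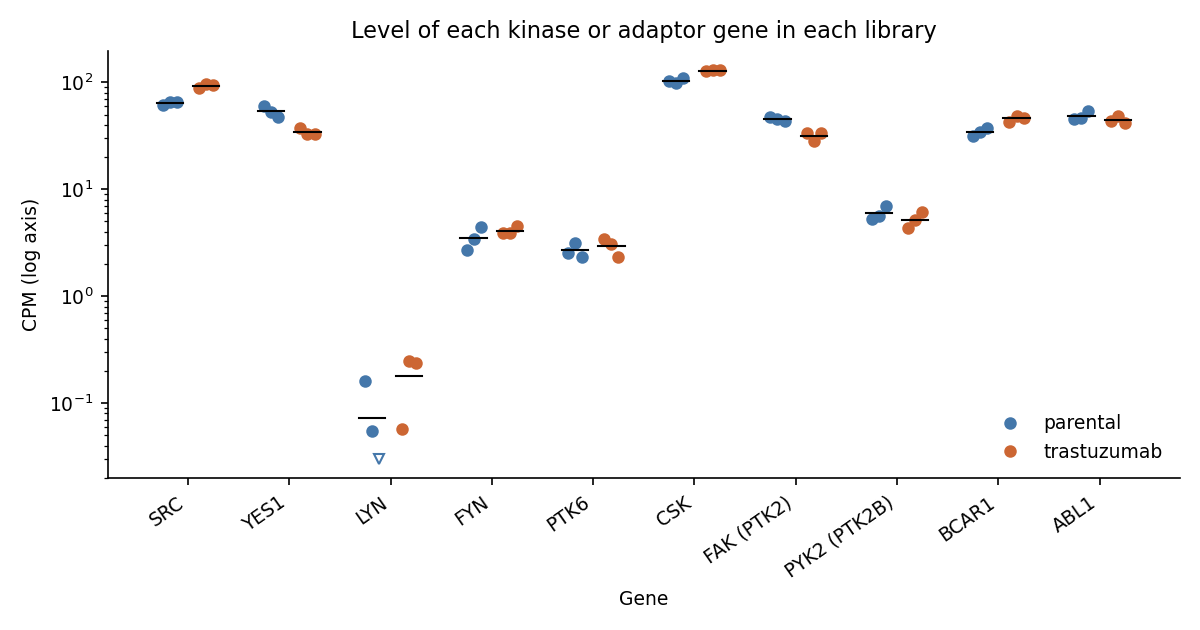
Level of each of the 10 genes in CPM (log axis) in the 3 parental (blue) and 3 trastuzumab (orange) libraries. Bars are group means, and the open triangle is LYN at a count of 0 in parental replicate 3, drawn at an arbitrary height. SRC, CSK and BCAR1 lie higher in all trastuzumab libraries, YES1 and FAK lower, and the groups of the other 5 genes overlap.

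SRC (ENSG00000197122, hg38 chromosome 20, 37344685 to 37406050, plus strand), the kinase for which the family is named, stood at 61.9, 65.0 and 65.2 CPM in parental replicates 1 to 3 and at 88.1, 96.8 and 93.6 CPM in trastuzumab replicates 1 to 3. All trastuzumab libraries lay above all parental ones. The log2 fold change was 0.54 ± 0.053 (SE, edgeR adjusted p = 3.96e-07).

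YES1 (ENSG00000176105, chromosome 18, 721588 to 812546, minus strand), a close and widely expressed relative of SRC, stood at 60.7, 52.9 and 46.9 CPM in parental and 37.1, 32.7 and 32.6 CPM in trastuzumab libraries. The parental libraries were spread more widely than for SRC, and the lowest of them lay above the highest trastuzumab library. The log2 fold change was -0.65 ± 0.088 (edgeR adjusted p = 1.63e-05). Its processed pseudogene YES1P1 was at 0 counts in every library, and the 4 annotated genes that overlap YES1 had means of 0.0905 CPM or less in each group.

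FYN (ENSG00000010810, chromosome 6, 111660332 to 111873452, minus strand), which also works in lymphocytes and neurons, stood at 2.68, 3.41 and 4.48 CPM in parental and 3.87, 3.93 and 4.54 CPM in trastuzumab libraries. The groups overlapped, and the log2 fold change of 0.22 ± 0.20 did not pass (edgeR adjusted p = 0.394). PTK6 (ENSG00000101213, chromosome 20, 63528001 to 63537370, minus strand), known as breast tumour kinase (BRK), lacks the lipid anchor of SRC. It stood at 2.54, 3.16 and 2.34 CPM in parental and 3.40, 3.10 and 2.34 CPM in trastuzumab libraries. Here too the groups overlapped (log2 fold change 0.14 ± 0.22, edgeR adjusted p = 0.653).

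LYN (ENSG00000254087, chromosome 8), best known as a kinase of B cells and myeloid cells, was close to the limit of detection. It had 12, 4 and 0 counts in parental and 4, 20 and 19 counts in trastuzumab libraries, or 0.162, 0.0543 and 0 CPM against 0.0571, 0.248 and 0.237 CPM. The higher values came from trastuzumab replicates 2 and 3, which also held the most KRT5 and KRT14 RNA, and the groups overlapped. The part of that difference between libraries in the LYN value was not tested. The log2 fold change of 1.31 ± 1.08 did not pass (edgeR adjusted p = 0.351), and without those libraries it was -0.33. A change of LYN was not detectable at this depth.

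Per length, the summed RNA of the SRC-like kinases overlapped between the groups while the shares of SRC and YES1 did not. The deposited FPKM values of SRC, YES1, FYN, LYN and PTK6 summed to 20.6, 19.9 and 18.4 in parental and to 19.4, 19.7 and 19.1 in trastuzumab libraries (exact 2-sided permutation p = 0.8). SRC took 42.1, 45.7 and 48.7% of that total in parental and 60.3, 65.1 and 64.8% in trastuzumab libraries. YES1 took 52.5, 47.3 and 44.6% in parental and 32.2, 27.9 and 28.7% in trastuzumab libraries. For both kinases every library of one group lay apart from every library of the other, with mean differences of 17.9 and -18.5 percentage points. As SRC and YES1 hold most of the total, a larger share of one comes with a smaller share of the other. The separations of these shares and of the SRC to YES1 ratio are therefore not independent results. The exact 2-sided permutation p was 0.1 for each, and 0.25 adjusted over the 5 kinases. PTK6 held 4.16 ± 0.628% and 4.41 ± 0.785% (SD, n = 3) of the total, FYN 2.17 ± 0.669% and 2.43 ± 0.257%, and LYN 0.0492 ± 0.0486% and 0.120 ± 0.0596%, all with overlapping groups.

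**Figure D2:**
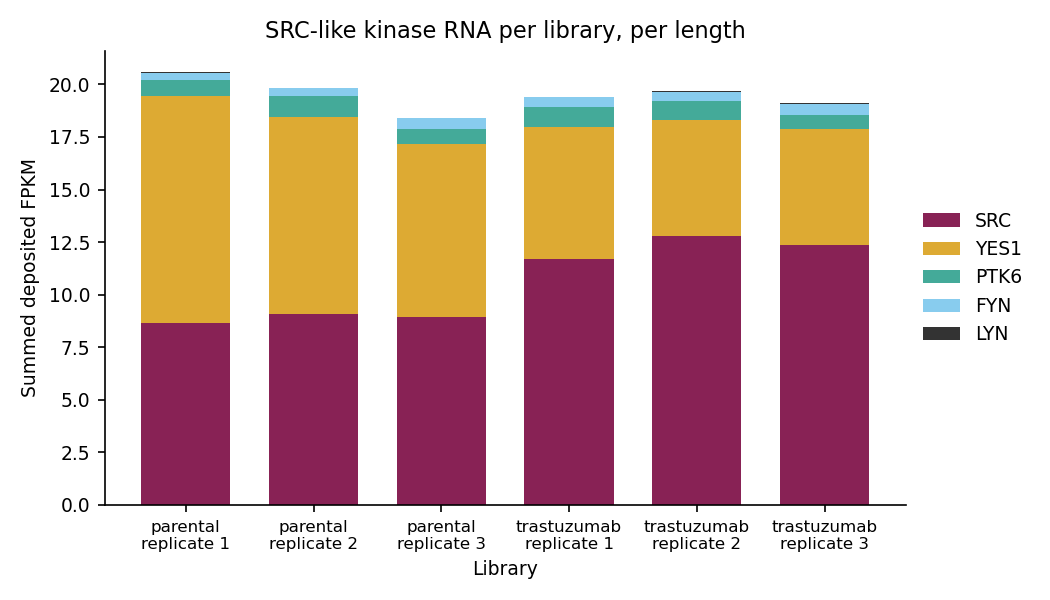
Deposited FPKM of SRC, YES1, PTK6, FYN and LYN, stacked from bottom to top for each library. The vertical axis is their sum in FPKM and the horizontal axis the 6 libraries. The totals lie between 18.4 and 20.6 FPKM, while the SRC segment is larger and the YES1 segment smaller in the 3 trastuzumab libraries.

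CSK (ENSG00000103653, chromosome 15, 74782057 to 74803198, plus strand) stood at 102, 98.4 and 110 CPM in parental and 128, 130 and 129 CPM in trastuzumab libraries. The trastuzumab libraries lay close together and above all parental ones. The log2 fold change was 0.32 ± 0.051 (edgeR adjusted p = 5.68e-05), a 1.25-fold rise. The call ended and the direction turned with the trend on GC content and length removed (-0.0501, edgeR adjusted p = 0.454) and with that on GC content alone (-0.0598, edgeR adjusted p = 0.351). The summed FPKM of SRC, YES1, FYN and LYN over that of CSK gave log2 ratios of -0.033, -0.047 and -0.27 in parental and -0.39, -0.38 and -0.40 in trastuzumab libraries. Every trastuzumab library was lower, with parental replicate 3 the nearest to them. As ratios the group means were 0.922 and 0.764, and the difference of -0.27 on the log2 scale had an exact 2-sided permutation p of 0.1, the smallest possible.

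The promoter windows of YES1, which fell, and CSK, which rose, are shown because their transcripts differ widely in base composition (38.5% and 61.1% G and C). Each window is the 100 bases before the RefSeq start (GRCh38.p14), 5′ to 3′ on the strand of the gene, with the GC box, GGGCGG read on both strands, in capitals.
YES1, chr18:812243-812342, minus strand: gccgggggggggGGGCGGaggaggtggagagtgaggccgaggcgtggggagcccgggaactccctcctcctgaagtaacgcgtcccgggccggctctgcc
CSK, chr15:74788444-74788543, plus strand: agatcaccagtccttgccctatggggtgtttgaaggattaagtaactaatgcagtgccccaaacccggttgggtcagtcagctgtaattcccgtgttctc
The YES1 window is 76% G and C, with 9 CpG dinucleotides and 1 GC box. The CSK window is 50%, with 2 CpG dinucleotides and 0 GC boxes, the reverse of the order of the transcripts. Both windows lie inside the annotated spans of their genes. That of YES1 is near the annotated start at 812546. That of CSK is well past the annotated start at 74782057, so it precedes an internal start and not the 5′ end of the gene. Over 35116 RefSeq windows of the same length the median is 60% G and C, and 31.3% hold a GC box on either strand. Neither window holds CCAAT or TATAAA on either strand, which 18.1% and 4.99% of the windows hold. BCAR1 was matched at 5 starts, with 61 to 75% G and C, and SRC was not matched.

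FAK (PTK2, ENSG00000169398, chromosome 8), which couples integrins to SRC, stood at 47.4, 44.9 and 43.9 CPM in parental and 33.9, 28.1 and 33.4 CPM in trastuzumab libraries. Every trastuzumab library lay below every parental one, with replicate 2 the lowest. The log2 fold change was -0.51 ± 0.079 (edgeR adjusted p = 4.26e-05), a 1.43-fold fall. With the trend on GC content and length removed it was -0.13 and did not pass (edgeR adjusted p = 0.155). FAK passed as lower under the other 20 of the 21 alternatives tried, among them the fit with the trend on GC content alone removed. PYK2 (PTK2B, ENSG00000120899, chromosome 8), its calcium-responsive relative, stood at 5.27, 5.58 and 6.98 CPM in parental and 4.37, 5.17 and 6.08 CPM in trastuzumab libraries. Those groups overlapped, and the log2 fold change of -0.19 ± 0.17 did not pass (edgeR adjusted p = 0.383). Per length, FAK stood 4.41-fold above PYK2 in parental and 3.52-fold in trastuzumab libraries. These log2 ratios, 2.14 ± 0.27 and 1.82 ± 0.30 (SD, n = 3), overlapped between the groups (exact 2-sided permutation p = 0.2).

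BCAR1 (ENSG00000050820, chromosome 16, 75228187 to 75268053, minus strand), the substrate through which FAK and SRC reach CRK, stood at 31.8, 34.4 and 37.5 CPM in parental and 42.6, 48.8 and 46.4 CPM in trastuzumab libraries. The groups did not overlap, and the log2 fold change was 0.41 ± 0.078 (edgeR adjusted p = 0.00031). Leaving out trastuzumab replicates 2 and 3 together ended that call (log2 fold change 0.30, edgeR adjusted p = 0.0558), as did removing the trend on GC content alone (0.0065, edgeR adjusted p = 0.952). A further annotated transcript on the same strand overlaps BCAR1, with means of 0.385 and 0.515 CPM, and the processed pseudogene BCAR1P2 held at most 6 counts in a library.

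ABL1 (ENSG00000097007, chromosome 9, 130713946 to 130887675, plus strand), a kinase of actin remodelling and the DNA damage response, stood at 45.0, 46.3 and 54.1 CPM in parental and 43.1, 48.1 and 42.1 CPM in trastuzumab libraries. The groups overlapped (log2 fold change -0.13 ± 0.079, edgeR adjusted p = 0.209).

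Levels were ordered between genes per length only. In parental libraries, mean FPKM ran from CSK (20.4 ± 0.941, SD, n = 3) through YES1 (9.46 ± 1.30), SRC (8.89 ± 0.218), ABL1 (6.22 ± 0.56), BCAR1 (3.38 ± 0.25) and FAK (2.97 ± 0.146) to PTK6 (0.817 ± 0.139), PYK2 (0.677 ± 0.1), FYN (0.42 ± 0.105) and LYN (0.01 ± 0.01). The ranges of YES1 and SRC overlapped, as did those of PTK6 and PYK2, and the other neighbours were apart. In trastuzumab libraries the order was CSK (24.2 ± 0.148), SRC (12.3 ± 0.555), YES1 (5.74 ± 0.439), ABL1 (5.43 ± 0.386), BCAR1 (4.28 ± 0.287), FAK (1.97 ± 0.203), PTK6 (0.857 ± 0.159), PYK2 (0.563 ± 0.0950), FYN (0.47 ± 0.0436) and LYN (0.0233 ± 0.0115). There SRC was clear of its neighbours, and the overlapping neighbours were YES1 with ABL1 and PYK2 with FYN. Among 13569 tested protein-coding genes, SRC stood at percentile 70.5 of mean FPKM in parental and 77.3 in trastuzumab libraries, and YES1 at 72.0 and 62.3.

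Base composition moved with the direction of these changes. The genes that rose have transcripts of higher GC content (SRC 59.3%, CSK 61.1%, BCAR1 65.3%) than those that fell (YES1 38.5%, FAK 45.3%). When the tested protein-coding genes were cut into 5 equal groups by GC content, the group of lowest content, with YES1 in it, had a median log2 fold change of -0.49, and the group of highest content one of 0.37, with SRC, PTK6, CSK and BCAR1 in it. Spearman's rho of fold change with GC content was 0.567 across genes, which share the same 6 libraries and are not independent. A further edgeR fit removed from each library a smooth trend on GC content and exonic length. It also removes any biological change tied to those properties, and the cause of the trend was not tested. In this corrected fit 36.8% of the tested genes passed, 17.8% higher and 19.0% lower.

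In the corrected fit 4 of the 10 genes passed, 2 higher and 2 lower, and the median log2 fold change was -0.090. SRC was higher (0.26 ± 0.043, edgeR adjusted p = 0.000157), as was BCAR1 (0.18 ± 0.064, edgeR adjusted p = 0.0381), and YES1 was lower (-0.17 ± 0.065, edgeR adjusted p = 0.0487). CSK, at -0.05 ± 0.047, and FAK, at -0.13 ± 0.068, did not pass. ABL1, which had not passed before, was lower in this fit (-0.39 ± 0.070, edgeR adjusted p = 0.000303). PTK6 stood at -0.25, PYK2 at -0.36, FYN at 0.33 and LYN at 1.48, with adjusted p of 0.404, 0.0950, 0.233 and 0.317. With GC content alone in the trend, YES1 stood at -0.15 and did not pass (edgeR adjusted p = 0.0970). SRC passed as higher under all 21 alternatives tried, with log2 fold changes of 0.18 to 0.59.

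**Figure D3:**
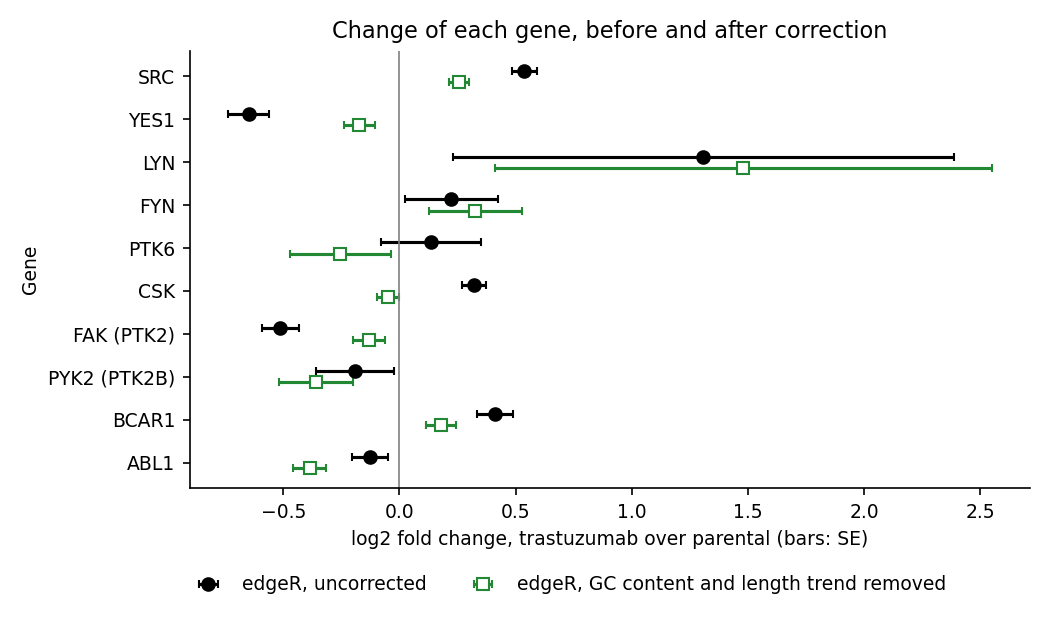
log2 fold change of each gene (horizontal axis, bars are SE) in the uncorrected edgeR fit (black circles) and with the trend on GC content and length removed (green open squares). SRC, BCAR1 and YES1 lie nearer to 0 after correction on the same side, CSK moves to -0.05, and ABL1 moves from -0.13 to -0.39.

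**Figure D4:**
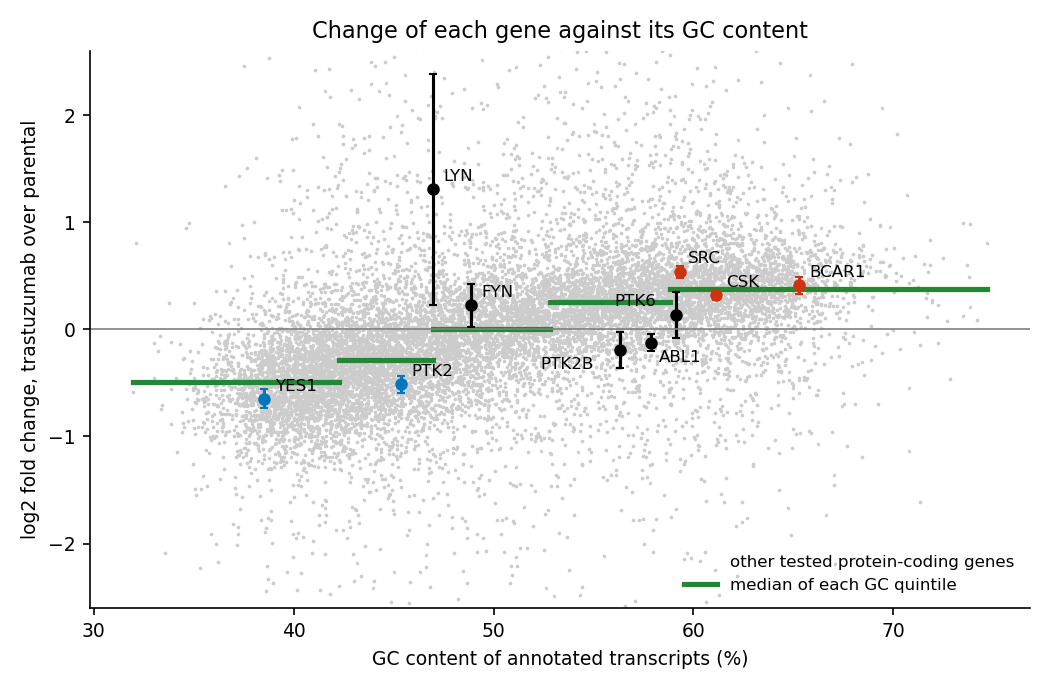
log2 fold change (vertical axis, limited in range, so that the most extreme genes are not shown) against GC content of annotated transcripts in percent. Grey points are tested protein-coding genes, green lines the medians of 5 equal groups by GC content, and larger points with SE bars the 10 genes (red rose, blue fell, black did not pass). The medians climb from -0.49 to 0.37. ABL1, PTK2B, PTK6, CSK, YES1 and PTK2 lie below the line for their GC content, and SRC, BCAR1, FYN and LYN above it.

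By Pearson r of log2(CPM + 0.5) over the 6 libraries, the genes most like SRC among 8695 protein-coding genes averaging 10 CPM or more were GIPC1 (0.9997), LEMD2 (0.9994) and SNRNP70 (0.9993). Those most like YES1 were PBK (0.9996), ABHD5 (0.9983) and CDC27 (0.9981). Such likeness was common, with r above 0.95 for 1831 genes with SRC and 1384 with YES1, all over the same libraries.

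Further SRC-like kinases included FRK, LCK, SRMS, FGR and BLK. FRK, an epithelial relative of PTK6, stood at 34.1, 33.2 and 30.3 CPM in parental and 17.5, 19.2 and 16.6 CPM in trastuzumab libraries. The groups did not overlap, and FRK fell (log2 fold change -0.87 ± 0.082, edgeR adjusted p = 2.14e-07), also in the corrected fit (-0.22, edgeR adjusted p = 0.0402). Of this list 3 genes were tested, with 0 higher, 1 lower and 2 that did not pass, while 49.3% of all tested genes passed. LCK and SRMS stood at 0.619 CPM or less, and the untested blood cell kinases FGR and BLK at 0.270 CPM or less in every library.

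Genes that act on the SRC tail or limit SRC kinases passed in 13 of 19 tested cases, 6 higher and 7 lower, with a median log2 fold change of -0.099. Over all tested genes 49.3% passed, and a larger share at 1 CPM, which all 19 reached on average in at least 1 group. The count of 13 was therefore not taken as an excess. CBL, a ubiquitin ligase for active receptors and SRC kinases, fell from 90.3 ± 1.92 to 52.1 ± 3.83 CPM (SD, n = 3). CAV1, the caveolar scaffold, fell from 13.9 ± 1.78 to 8.03 ± 0.529 CPM. The receptor phosphatase PTPRE rose from 0.608 ± 0.0615 to 2.05 ± 0.493 CPM. LIME1, a membrane adaptor that binds CSK, rose from 2.02 ± 0.311 to 3.42 ± 0.836 CPM, a call lost without trastuzumab replicate 3 (edgeR adjusted p = 0.0936), without replicates 2 and 3 (edgeR adjusted p = 0.302) and in the corrected fit (edgeR adjusted p = 0.233). CBL, CAV1 and PTPRE passed in the same direction in the corrected fit, where 3 genes of the list were higher and 9 lower. PTPRE did not pass with limma on unfiltered log2(FPKM + 1) (adjusted p = 0.0733).

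Of 26 tested integrin-side focal adhesion genes, 14 did not pass, 6 rose and 6 fell (median 0.075), while 49.3% of all tested genes passed. TNS1, a tensin that ties integrins to actin, fell from 38.1 ± 2.17 to 18.6 ± 0.929 CPM. FERMT2 (kindlin-2), an integrin activator, fell from 38.8 ± 2.04 to 21.6 ± 1.76 CPM, and VCL (vinculin), which links talin to actin, from 396 ± 7.34 to 284 ± 4.64 CPM. ZYX (zyxin), found at mature adhesions, rose from 173 ± 10.4 to 246 ± 9.18 CPM. These 4 passed in the same direction in the corrected fit, where 2 genes of the list were higher, 7 lower and the median was -0.073.

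CAS relatives, CRK adaptors and GTPase regulators passed in 20 of 25 tested cases, 12 higher and 8 lower (median 0.12). These stand beside 49.3% of all tested genes and a larger share at 1 CPM, as said above. All 25 averaged 1 CPM or more in at least 1 group, so the count was not taken as an excess. SOS1, a RAS exchange factor, fell from 83.5 ± 7.55 to 40.6 ± 4.06 CPM. ASAP2, a GTPase-activating protein for ARF that binds PYK2, fell from 36.3 ± 0.662 to 18.6 ± 2.0 CPM. ARHGEF28, a GTPase exchange factor that binds FAK, rose from 2.5 ± 0.232 to 4.49 ± 0.129 CPM, and EFS, a relative of BCAR1, from 2.98 ± 0.296 to 5.20 ± 0.967 CPM. ARHGEF28 did not pass with limma on unfiltered log2(FPKM + 1) (adjusted p = 0.147). EFS did not pass in the corrected fit (edgeR adjusted p = 0.117), which had 8 genes of the list higher and 7 lower.

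Substrates and partners of SRC kinases passed in 17 of 24 tested cases, 9 higher and 8 lower (median -0.056). Here too 49.3% of all tested genes passed, and a larger share at 1 CPM, which 23 of the 24 reached on average in at least 1 group. The count of 17 was therefore not taken as an excess. STAP2, an adaptor and substrate of PTK6, fell from 4.52 ± 0.296 to 1.88 ± 0.282 CPM. ARHGAP5, a GTPase-activating protein, fell from 63.8 ± 6.69 to 33.9 ± 3.33 CPM, and KHDRBS3, an RNA-binding relative of the SRC substrate SAM68, from 1.09 ± 0.143 to 0.357 ± 0.204 CPM. The docking protein DOK1 rose from 2.31 ± 0.354 to 4.25 ± 0.0939 CPM. KHDRBS3 and DOK1 did not pass in the corrected fit (edgeR adjusted p = 0.0728 and 0.0681), which had 6 genes of the list higher and 7 lower.

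Partners and regulators of ABL kinases passed in 15 of 19 tested cases, 5 higher and 10 lower (median -0.20). The share over all tested genes was 49.3%, and larger at 1 CPM, which all 19 reached on average in at least 1 group. The count of 15 was therefore not taken as an excess. ABL2, the nearest relative of ABL1, fell from 64.5 ± 2.13 to 41.2 ± 3.66 CPM (edgeR adjusted p = 9.43e-07). Of the WAVE complex, which drives actin branching, WASF3 fell from 8.60 ± 0.442 to 3.90 ± 0.794 CPM and NCKAP1 from 193 ± 17.6 to 105 ± 3.33 CPM. RIN1, an activator of ABL kinases, rose from 1.07 ± 0.326 to 2.54 ± 0.0851 CPM, and its relative RIN3 from 2.79 ± 0.175 to 5.73 ± 0.787 CPM. These 5 passed in the same direction in the corrected fit, where 5 genes of the list were higher and 7 lower.

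**Figure D5:**
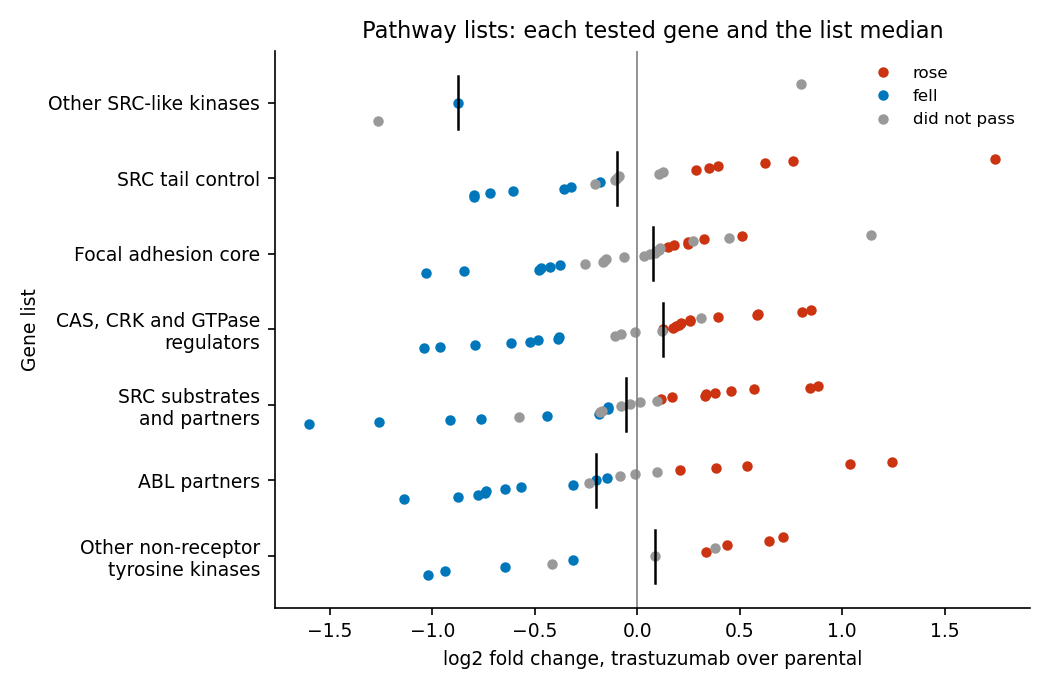
log2 fold change (horizontal axis) of each tested gene in 7 lists of related genes (rows), red where it rose, blue where it fell and grey where it did not pass, with list medians as black ticks. Each list except that of the other SRC-like kinases holds genes that rose and genes that fell.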

How the data were processed

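RNA-seq of 6 SKBR3 libraries was used, grouped by treatment as labelled. Whole-number read counts for each gene were deposited, and the authors also deposited FPKM values, scaled by gene length and library size, for 33686 genes. STAR 2.4.2a and hg38 were used, per the submitters' processing notes, and the library kit keeps strand, per the labels' protocols. The sources used here do not give the counting program, strand setting or annotation, so sense and antisense reads may not be told apart. Depth was 71015138 to 82857810 counts. Library pairs within a group differed by more than sampling noise (chi-square per degree of freedom 18.0 to 27.1).

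Symbols came from a gene name table, positions and GC content from GENCODE 29, promoters from RefSeq. Counts were fitted with edgeR 4.0.16 in R 4.3.3 (TMM, filterByExpr, robust quasi-likelihood F test, no covariate). The corrected fit used spline offsets with 5 degrees of freedom on 17649 genes. Ratios and shares were compared by exact permutation of libraries. Alternatives were other scalings and filters, DESeq2 1.42.0, limma 3.58.1 on counts (voom) and on log2(FPKM + 1) or log2(FPKM + 0.1) with at least 1 FPKM in 3 libraries or no filter, a threshold of 0.01, a replicate block, counts per length and CPM for the ratios, and leaving out libraries. Leaving out trastuzumab replicates 2 and 3 together, and the SRC to YES1 ratio, were chosen after seeing the data. Only the main edgeR fit was run on simulated counts, and the outcome is not given here.

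The 10 genes and the lists were chosen with earlier results of these data known. Named list genes are up to 4 changed genes per list, those of largest change that average 1 CPM or more in the higher group, and, for SRC and YES1, the 3 genes of most similar pattern. Markers are named above 10 CPM. Other genes were named after their values were seen. Some list genes are not reported here.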

Additional observations from a re-analysis of the deposited data

How the results depend on the processing

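The 10 genes gave 3 higher and 2 lower in each fit that left out 1 library and with DESeq2, limma and each scaling and filter. The filtered FPKM fits tested only 6 of them, and the filter of 1 CPM in each group 9. With GC content offsets alone 1 was higher and 3 lower, namely FAK, PYK2 at -0.48 and ABL1 at -0.45. CSK was -0.0501 with GC content and length offsets and -0.0598 with GC content alone, PTK6 was -0.25 and -0.21, and LYN was -0.33 without trastuzumab replicates 2 and 3. Over all genes, leaving out those libraries gave 2736 higher against 4274, and leaving out 1 library 3800 to 4295 higher and 4057 to 4394 lower. Counts of list genes moved by over 1.5 times as follows, and the cause was not tested. The filtered FPKM fits tested fewer genes, so that some genes could not be called in them. They tested 13 against 19 for SRC tail control and 23 against 25 for CAS and CRK genes. For ABL partners the numbers were 16 against 19, and for other non-receptor kinases 6 against 11. For SRC tail control, 3 were higher against 6 with both GC offsets and all FPKM fits. For focal adhesion genes, 2 were higher against 6 with GC content and length offsets, unfiltered FPKM and without those libraries, and with GC content alone 1 was higher and 13 lower against 6. For CAS and CRK genes, 6 were higher against 12 with filtered FPKM, GC content alone and without those libraries, and 3 with unfiltered FPKM. For SRC substrates, 5 were higher against 9 with unfiltered FPKM and without those libraries, which left 4 lower against 8, and 4 were higher with GC content alone. For ABL partners, 2 were higher against 5 with filtered FPKM and 3 with GC content alone. For other non-receptor kinases, 2 were higher against 4 with GC content alone and 2 lower against 4 with filtered FPKM. Leaving out each library gave differences in share of -0.047 to 0.62 percentage points for FYN and -0.094 to 0.68 for PTK6. The replicate numbers did not pair the libraries (correlations of deviations 0.213, -0.02 and 0.00129). With the replicate block, 4219 genes were higher and 4434 lower, and the 10 genes kept their calls, SRC at 0.54 and YES1 at -0.64. Depth limits LYN, which rests on 0 to 20 counts per library.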

Other observations

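Non-receptor tyrosine kinases outside the SRC and FAK families passed in 8 of 11 tested cases, 4 higher and 4 lower (median log2 fold change 0.088). Beside these stand 49.3% of all tested genes and a larger share at 1 CPM, so the count was not taken as an excess. JAK2, a kinase of cytokine receptors, fell from 4.74 ± 0.547 to 2.47 ± 0.399 CPM (SD, n = 3, edgeR adjusted p = 0.000526), a call lost without trastuzumab replicates 2 and 3 (edgeR adjusted p = 0.0614). FER, a kinase found at cell junctions, fell from 4.83 ± 0.406 to 2.38 ± 0.619 CPM (edgeR adjusted p = 0.000583) and did not pass in the corrected fit (edgeR adjusted p = 0.178) or with limma on unfiltered log2(FPKM + 1) (adjusted p = 0.0506). TNK1 rose from 19.1 ± 0.617 to 31.2 ± 0.338 CPM (edgeR adjusted p = 5.41e-07). ABL2 is given above. The blood cell kinases ZAP70, BTK and TXK, and BMX, were not tested and stood at 0.173 CPM or less in every library. SYK, better known from blood cells and also present in breast epithelium, was named after its values were seen. It stood at 12.3, 11.7 and 13.1 CPM in parental and 21.3, 18.2 and 18.4 CPM in trastuzumab libraries, without overlap (log2 fold change 0.64 ± 0.098, edgeR adjusted p = 3.65e-05).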
